A study of Mus musculus with 32 samples.

Results

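Fatty acid oxidation and a few PPAR-regulated metabolic genes were examined in the epidermis of mice with and without a working Ppard gene, before and after UV. The 34 genes encode the carnitine shuttle, the enzymes of mitochondrial and peroxisomal beta-oxidation, the acyl-CoA synthetases and thioesterases around them, and 4 metabolic targets of the PPAR receptors. They were taken by symbol from a list put together with earlier results of these mice known, and were chosen on the difference between the genotypes without and after UV. Those differences and their change with UV are therefore descriptions of these mice, and where a count of them past a threshold is printed beside the share of all genes, nothing is read from it. All 34 symbols were found among the 55401 genes counted in every mouse. Of the 34, 33 passed a filter of 1 cpm (reads scaled to the size of the library) in 1 mouse or more, and were tested together with all 15546 genes that passed it.

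The series holds epidermis of 32 mice from a hairless SKH-1/SV129/BL6/J cross, aged 10 to 14 weeks, split into 8 groups of 4 by sex, genotype and treatment. Mice labelled WT carried 2 normal Ppard alleles, and mice labelled KO, which the series' design calls littermates, were PPARD-/-. The labels name no Cre or tissue for this deletion, and its exons are not given in the sources used here. UV mice received 120 mJ/cm2 on the back and were sampled 24 h later, and control mice were handled in the same way without UV and are labelled as time 0, so that UV and time cannot be told apart. The epidermis was peeled from the dermis after soaking the dorsal skin in ammonium thiocyanate. Nothing in the labels ties single mice to litters or days, so the spread is that between single mice.

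Fatty acids are activated to acyl-CoA by synthetases, passed into mitochondria as carnitine esters and shortened there in rounds of 4 reactions. Each round hands electrons to the respiratory chain. Peroxisomes run a parallel pathway for very long and branched chains. PPAR alpha, beta/delta and gamma are nuclear receptors that bind fatty acids and switch on many of these genes, and PPAR beta/delta, the product of Ppard, is the prevailing form in keratinocytes, where lipid also supplies the water barrier.

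Each mouse gave between 22919428 and 40653581 reads assigned to genes. Reads on Ppard (chr17:28232700-28301474, GRCm38) ran from 87.3 to 105 cpm in WT and from 70.3 to 88.9 cpm in KO mice without UV, and from 252 to 326 and from 175 to 239 cpm after UV. The KO mice thus kept most of their Ppard reads, and a gene total cannot show the loss of some exons. Markers of keratinocytes summed to 74700 to 83000 cpm without UV and 30600 to 46200 cpm after UV in WT mice, and to 69100 to 110000 and 25600 to 55800 cpm in KO mice, with no overlap. The median sums without and after UV were 95.9 and 889 cpm in WT and 93.4 and 821 cpm in KO mice for myeloid cells, and 175 and 37.2 cpm in WT and 154 and 62.2 cpm in KO mice for T cells. They were 1190 and 528 cpm in WT and 939 and 626 cpm in KO mice for Langerhans cells, and 389 and 21.9 cpm in WT and 311 and 33.2 cpm in KO mice for dermal fibroblasts. A sum is led by its highest markers and does not speak for each. Among the 10 keratinocyte markers, 2 rose and 7 fell in WT mice, and 3 rose and 6 fell in KO mice (adjusted P value under 0.05 by edgeR). For T cells, 7 of the 8 markers fell in each genotype. For Langerhans cells, 7 of the 8 fell in WT mice, and 6 fell and 1 rose in KO mice. Of the 8 fibroblast markers, 4 fell in WT and 1 in KO mice at an adjusted P value under 0.05 by edgeR, and none rose. Their median log2 fold changes were -2.30 in WT and 1.23 in KO mice. The KO value includes KO UV female 54F, which stood far above the other KO UV mice (values below), and was not computed without it. The median sum in KO mice went down, as given above. Of the 7 tested myeloid and neutrophil markers, 4 rose in WT mice, and 5 rose and 1 fell in KO mice, with medians of 1.08 and 2.43. Every UV effect given here was measured beside these shifts, and their part in it was not tested. KO and WT mice also differed in markers. After UV, 6 of the 8 fibroblast markers were called higher in KO mice, a group that holds 54F, with a median log2 difference of 4.25. Sebaceous gland markers had median differences of -0.91 without and 1.00 after UV, with none called. The part of these marker differences in the genotype differences was not tested. Markers of skeletal muscle, a layer under the skin, summed to between 3.97 and 4230 cpm and passed 1000 cpm in 9 mice, of which 7 were female. These 9 include 4 of the 8 female and none of the 8 male mice without UV. Fibroblast markers stood at 2060 cpm in KO UV female 54F against at most 49.9 cpm in the other KO UV mice. In bulk epidermis, fewer cells of a type and less RNA per cell cannot be told apart.

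Beside the values, 2 stretches of promoter sequence show how some of the genes are laid out. Hadha and Hadhb, which encode the alpha and beta subunits of the mitochondrial trifunctional protein, start head to head on chromosome 5 with 85 bases between their annotated first bases (chr5:30155163-30155247, GRCm38, plus strand, 69.4% G or C). Capitals mark the 2 GC boxes (GGGCGG), short motifs bound by factors of the Sp1 family.

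Hadha to Hadhb: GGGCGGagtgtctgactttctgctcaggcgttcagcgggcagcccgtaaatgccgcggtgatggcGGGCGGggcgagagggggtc

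PPAR receptors bind a direct repeat of the hexamer AGGTCA with 1 base between the copies. A RefSeq window of 250 bases before to 50 bases after the start (GRCm38.p6) was at hand for 28 of the 34 genes, in 29 windows. No window held the exact repeat on either strand, against 13 of the 32851 windows of all genes (0.0396%). A single hexamer was found in 5 windows (17.2%), those of Acadm, Acadvl, Cpt1a, Echs1 and Plin2, a share close to the 16.3% of all windows. The GC box was found in 20 windows (69%) against 35.7% of all windows. No match says only that these letters are not in this window. The hexamers of the carnitine shuttle gate Cpt1a (chr19:3323195-3323224, minus strand) and of the lipid droplet gene Plin2 (chr4:86670260-86670289, plus strand) are shown in capitals, since these genes moved in opposite directions after UV.

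Cpt1a: gctgcggggaggAGGTCAgtaaggaaactg
Plin2: gctgtctgacttAGGTCAggggtcctgaaa

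The genes differed widely in level. Per kilobase of exon in WT mice without UV, Fabp5, a fatty acid carrier, was highest at a median of 231 cpm per kilobase (range 172 to 391), followed by Acsbg1 at 114 and by Acsl5 at 54.5, and the ranges of these 3 did not overlap. From Acsl5 downward through Acaa2, Acsl1 and Etfa the ranges of neighbours overlapped. The oxidation enzymes proper ran from 54.4 for the thiolase gene Acaa2 to 0.997 for the peroxisomal thiolase gene Acaa1b. Acaa2 was thus level with Acsl5 and above the median of the synthetase gene Acsl1, 49.1. The length used merges all annotated exons, 8286 bases for Echs1, 8730 for Hadha and 1516 for Acaa2. Their transcripts gave 1458, 3918 and 1505 short windows, so the levels of Echs1 and Hadha per kilobase depend on the annotation. The ranking was not repeated with transcript lengths. Angptl4 was near the bottom at 0.372, and Cpt1b, the muscle form of the carnitine palmitoyltransferase, was last with between 0 and 9 reads in any mouse. Cpt1b stayed under 1 cpm in every mouse, at most 0.32 cpm, and was not tested, while the next lowest maximum in any mouse was that of Ehhadh at 4.44 cpm. Of the short windows of Cpt1b transcripts, 78.5% also occur in a transcript named Gm44502, so reads of Cpt1b can have been lost. The low count and last rank of Cpt1b therefore do not show that it was absent.

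**Figure D1:**
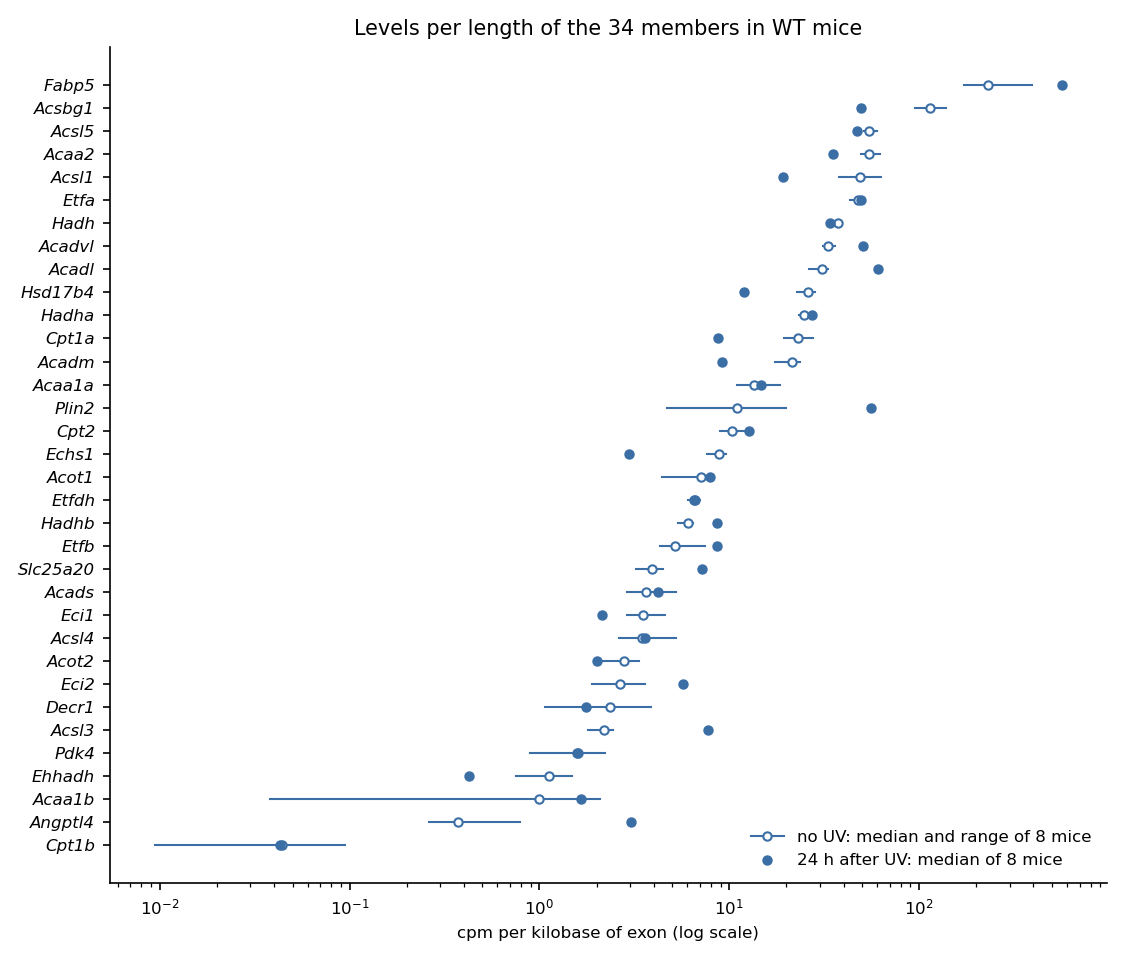
Level of each of the 34 genes in WT mice as cpm per kilobase of exon on a log axis, with the median and range of 8 mice without UV (open points and lines) and the median of 8 mice 24 h after UV (filled points). Fabp5 leads in both states, Cpt1b is last, and Plin2, Angptl4 and Acsl3 stand well above their own range after UV.

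UV moved most of the genes, and in both directions. In WT mice, 13 of the 33 tested genes rose and 11 fell at an adjusted P value under 0.05 (edgeR quasi-likelihood test, adjusted over all genes tested). Among all genes tested, 34.5% rose and 36.5% fell, so neither share stands far from that of the epidermis as a whole. In KO mice 9 rose and 18 fell, against 37.3% and 33.5% of all genes. The median log2 fold change of the genes was 0.07 in WT and -0.28 in KO mice, beside -0.01 and 0.09 over all genes. The 8 UV mice lay entirely above the 8 control mice for 8 genes in WT and 4 in KO mice, where 21.3% and 18.6% of all genes did so. They lay entirely below for 8 and 9 genes, where 22.1% and 16.5% of all genes did.

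**Figure D2:**
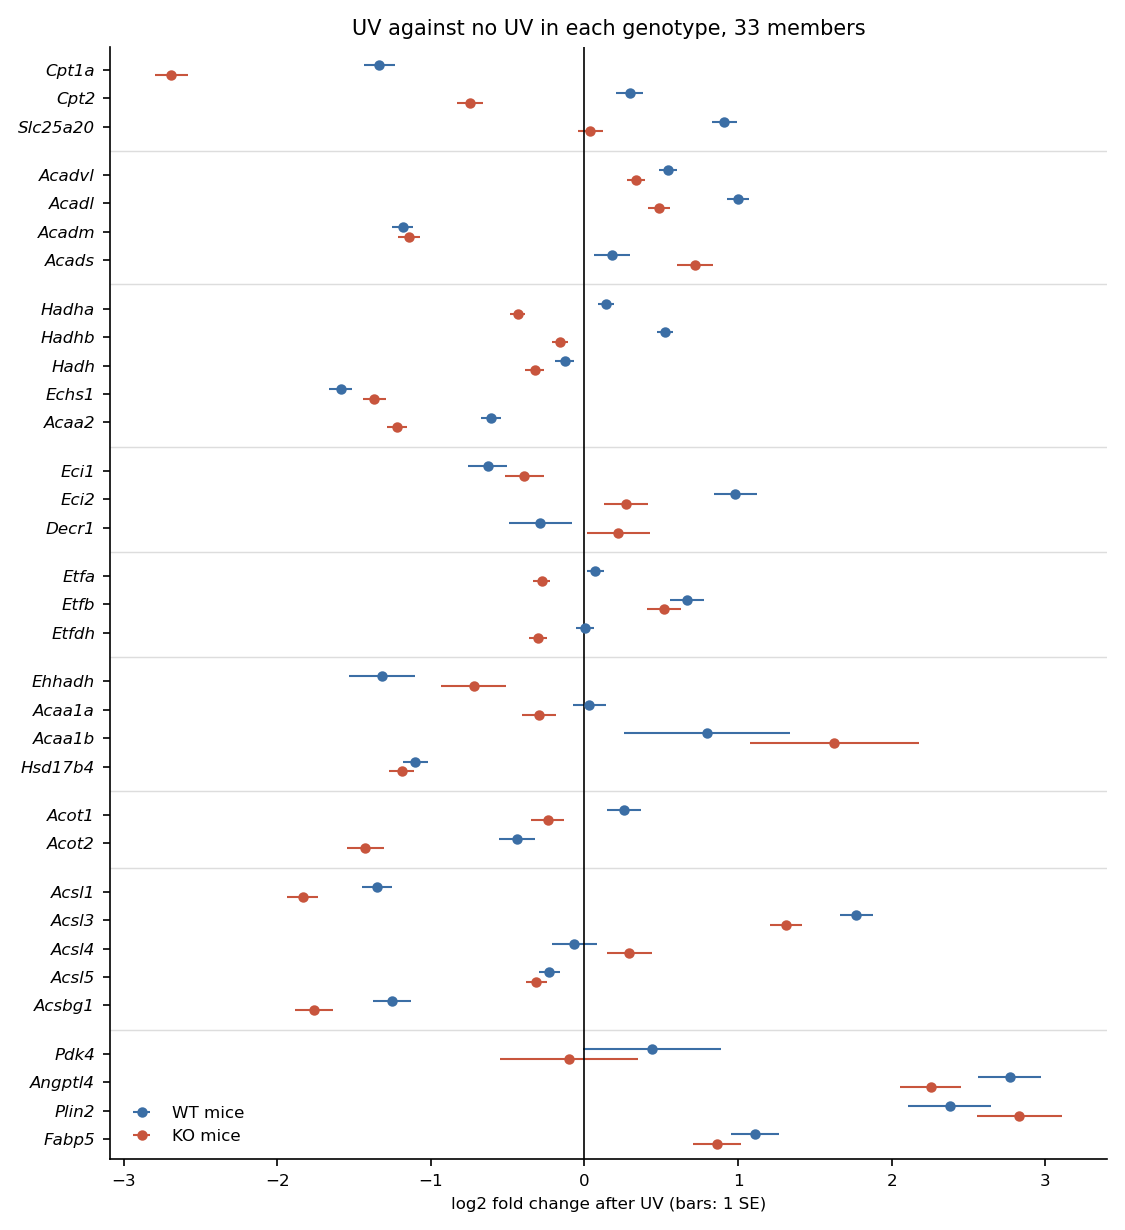
Log2 fold change 24 h after UV against no UV in WT (blue) and KO mice (red) for the 33 tested genes, ordered by role, with bars of 1 SE and 8 mice on each side. Angptl4 and Plin2 lie farthest to the right in both genotypes, Cpt1a is far lower in KO than in WT mice, and Cpt2, Hadha and Hadhb lie on opposite sides of 0.

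Read together, 7 genes rose in both genotypes (Acadl, Acadvl, Acsl3, Angptl4, Etfb, Fabp5 and Plin2) and 11 fell in both (Acaa2, Acadm, Acot2, Acsbg1, Acsl1, Acsl5, Cpt1a, Echs1, Eci1, Ehhadh and Hsd17b4). Cpt2, Hadha and Hadhb rose in WT and fell in KO mice. Acot1, Eci2 and Slc25a20 rose in WT mice and did not pass the test in KO mice, Acaa1a, Etfa, Etfdh and Hadh fell and Acads and Acaa1b rose in KO mice without passing in WT mice, and Acsl4, Decr1 and Pdk4 passed in neither. The share of all genes with each of these joint patterns was not counted, so none is read as particular to these genes.

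The carnitine shuttle carries the acyl chain across the inner mitochondrial membrane. Cpt1a encodes the outer membrane carnitine palmitoyltransferase, the step that sets the rate of entry. In WT mice Cpt1a ran from 149 to 210 cpm (median 177) without UV and from 64.5 to 80.2 cpm (median 66.9) after UV. In KO mice it ran from 207 to 330 cpm (median 237) without UV and from 30.2 to 53.2 cpm (median 36.4) after UV. Every UV mouse was below every control mouse of its genotype, and KO mice had both the highest and the lowest median of the 4 states. The log2 fold change after UV was -1.33 ± 0.10 (SE) in WT and -2.69 ± 0.11 in KO mice (adjusted P values 3.35e-12 and 9.39e-18).

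Cpt2, on the inner membrane, turns the carnitine ester back into acyl-CoA. Its values were 21.4 to 30.6 cpm (median 24.6) in WT mice without UV and 26.1 to 36.8 cpm (median 30.3) after UV, with overlap. KO mice held 20.3 to 25.3 cpm (median 23.0) without UV and 10.2 to 20 cpm (median 13.0) after UV, with no overlap. UV raised Cpt2 by 0.29 ± 0.09 on the log2 scale in WT mice (adjusted P value 0.00329) and changed it by -0.74 ± 0.09 in KO mice (1.53e-08). The WT rise did not pass the test in males taken alone.

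Slc25a20 encodes the translocase that exchanges carnitine esters for free carnitine. It went from 15.7 to 21.7 cpm (median 18.9) without UV to 29.9 to 40.3 cpm (median 34.7) after UV in WT mice, a log2 fold change of 0.91 ± 0.08 (adjusted P value 7.13e-11). In KO mice the median was 28.9 cpm (range 23.8 to 31.2) without UV and 29.1 cpm (range 23.9 to 33.4) after UV. KO mice without UV thus lay above all WT mice without UV, at about the median that KO mice had after UV.

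The first step inside the mitochondrion is made by acyl-CoA dehydrogenases that divide the chain lengths between them. The genes for very long and long chains, Acadvl and Acadl, rose in both genotypes, by 0.55 ± 0.06 and 1.00 ± 0.07 on the log2 scale in WT mice and by 0.34 ± 0.06 and 0.49 ± 0.07 in KO mice. Acadm, for medium chains, fell more than 2-fold, from a median of 83.8 to 35.6 cpm in WT and from 85.8 to 37.6 cpm in KO mice. Its range after UV, 31.4 to 41.5 cpm in WT and 35.2 to 46.2 cpm in KO mice, was far from that without UV, 67.8 to 91.9 and 77.2 to 100 cpm. The log2 fold changes of Acadm were -1.18 ± 0.07 and -1.14 ± 0.07 (adjusted P values 2.86e-14 and 6.6e-14). Acads, for short chains, reached at most 18 cpm in any mouse and rose in KO mice by 0.72 ± 0.12.

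Acadl without UV ran from 52.6 to 66.2 cpm in WT mice and from 72.3 to 99.3 cpm in KO mice, with no overlap, and its medians after UV were 121 and 122 cpm. The genotypes thus lay apart without UV and at nearly the same median after it.

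The remaining 3 reactions of the mitochondrial cycle are hydration, a second dehydrogenation and thiolysis. Echs1, the hydratase for shorter chains, fell farthest of the 33 genes in WT mice, from a median of 73.4 cpm (range 63.5 to 80) to 24.6 cpm (range 21.9 to 27.6). In KO mice Echs1 fell from 70.4 cpm (range 57.2 to 82.5) to 25.8 cpm (range 23.1 to 34.3). On the log2 scale Echs1 changed by -1.58 ± 0.07 and -1.37 ± 0.07 (adjusted P values 2.46e-16 and 4.75e-15). Acaa2, a thiolase, fell from 82.4 cpm (range 74.5 to 94) to 53.1 cpm (range 45.3 to 62.6) in WT mice. In KO mice Acaa2 fell from 95.3 cpm (range 85.2 to 116) to 41.2 cpm (range 35.2 to 51.3). Its log2 fold changes were -0.61 ± 0.06 and -1.22 ± 0.06.

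The trifunctional protein handles long chains through all 3 reactions and is built from the products of the adjacent genes Hadha and Hadhb. In WT mice Hadha had medians of 217 cpm without UV and 239 cpm after UV (ranges 203 to 224 and 209 to 260), and Hadhb 40 and 56.7 cpm (ranges 35.4 to 42.3 and 49.7 to 64.2). In KO mice Hadha had medians of 278 and 203 cpm (ranges 238 to 319 and 173 to 251), and Hadhb 48.9 and 44.2 cpm (ranges 43.7 to 58.2 and 36.5 to 49.8). Both genes therefore rose with UV in WT mice and fell in KO mice. The changes were small: 0.14 ± 0.05 and 0.52 ± 0.05 on the log2 scale in WT mice, and -0.43 ± 0.05 and -0.16 ± 0.05 in KO mice. The WT rise of Hadha did not pass the test in females alone, and the KO fall of Hadhb did not pass in males alone, nor without the 9 mice high in muscle markers or without KO UV female 54F (highest adjusted P value 0.144). Of the 100-base windows of Hadhb transcripts, 46% also occur in a transcript named Gm13910, so its level carries some uncertainty. Hadha and Hadhb, like Acadl, were singled out after their values were seen.

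**Figure D3:**
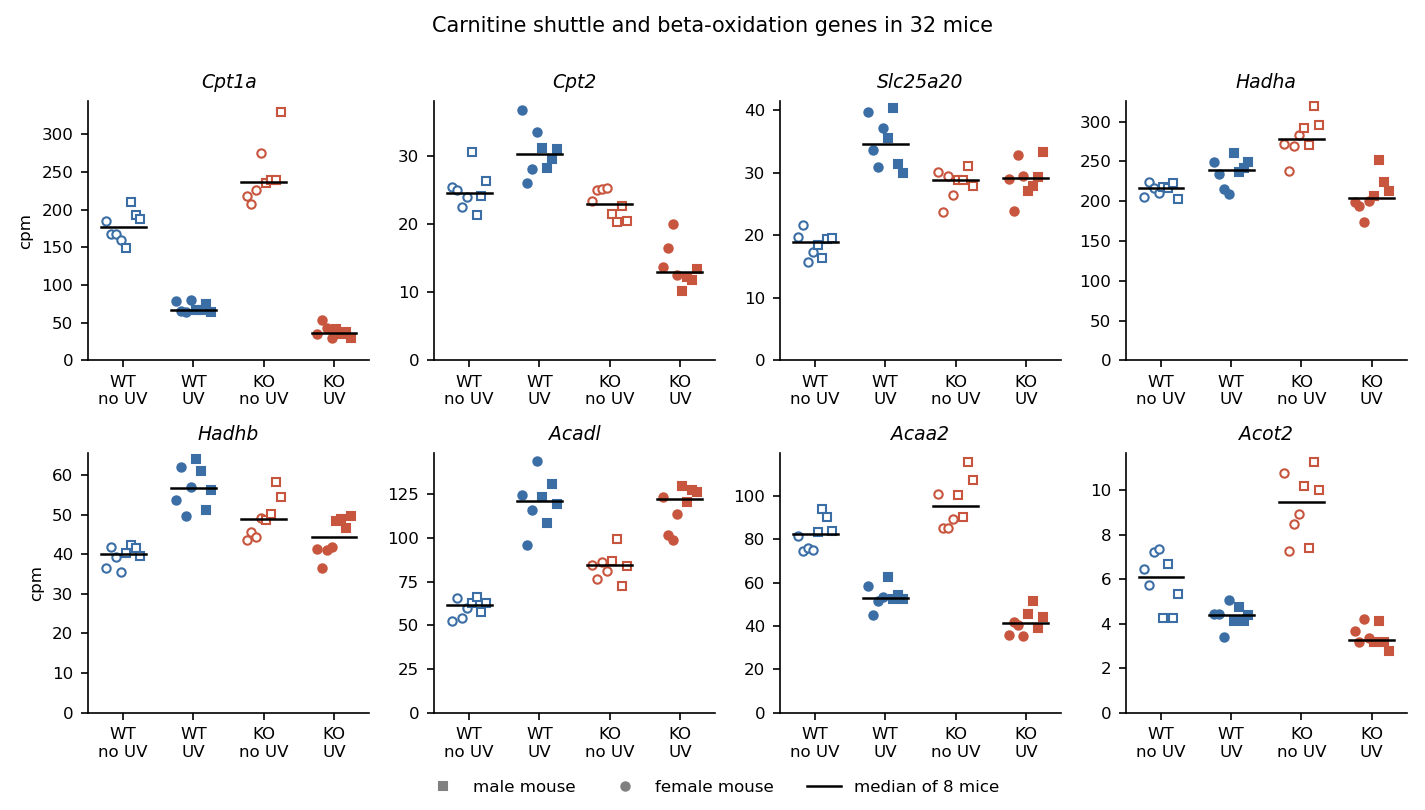
Level in cpm, on linear axes from 0, of 8 genes of the carnitine shuttle, mitochondrial oxidation and a thioesterase in each of the 32 mice, with open symbols for no UV, filled symbols for UV, squares for males, circles for females and bars for the median of 8 mice. The KO median starts above the WT median for all but Cpt2, at 23.0 and 24.6 cpm, and ends below it after UV for all but Acadl, at 122 and 121 cpm. All 8 are among the 9 genes whose UV effect was called lower in KO than in WT mice, so their shared course does not stand for the pathway. The 5 genes whose fitted difference went from lower to higher in KO mice, such as Echs1 and Acads, are not drawn here.

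The auxiliary enzymes let unsaturated chains pass through the cycle, and the electron transfer flavoprotein takes up the electrons. Eci2, an isomerase, went from a median of 14.6 cpm (range 10.5 to 19.9) to 31.6 cpm (range 19.3 to 35.8) in WT mice. In KO mice it was 16.3 cpm (range 12.6 to 24.8) without UV and 19.4 cpm (range 15.2 to 27.2) after UV. Its log2 fold changes were 0.98 ± 0.14 (adjusted P value 6.36e-07) and 0.27 ± 0.14 (0.0879). Eci1 fell in both genotypes, by 0.63 and 0.39 on the log2 scale, and Decr1 passed in neither, with values between 4.13 and 15.1 cpm. Etfb, the beta subunit of the flavoprotein, rose in both, while Etfa, the alpha subunit, and the dehydrogenase gene Etfdh had log2 fold changes of -0.28 ± 0.05 and -0.30 ± 0.06 in KO mice and of 0.07 ± 0.05 and 0.00 ± 0.06 in WT mice. Of the Etfb windows, 47.7% are shared with a transcript named Gm45233.

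Of the 4 genes of peroxisomal oxidation, 2 fell in WT mice, and 3 fell and 1 rose in KO mice. Among all genes, 36.5% fell in WT mice, and 33.5% fell and 37.3% rose in KO mice. Hsd17b4, the multifunctional enzyme for branched and very long chains, fell from a median of 88.8 to 40.6 cpm in WT and from 96.3 to 40.2 cpm in KO mice. The 8 UV mice of Hsd17b4, at most 48.2 cpm in WT and 52.5 cpm in KO mice, all lay below the controls, which were at least 77.5 and 84.1 cpm. The log2 fold changes were -1.10 ± 0.08 and -1.19 ± 0.08 (adjusted P values 2.39e-12 and 6.07e-13). Ehhadh, the second multifunctional enzyme, fell at low levels, from medians of 3.35 to 1.27 cpm in WT and 2.57 to 1.58 cpm in KO mice, or by 1.32 and 0.72 on the log2 scale.

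The thiolase genes Acaa1a and Acaa1b lie 182582 bases apart on chromosome 9 and share 21.2% and 30.5% of their 100-base windows with other genes, mostly with each other, so reads can have been lost or misplaced between them. Acaa1b ranged from 0.0751 to 4.08 cpm in WT mice without UV and from 2.21 to 6.25 cpm after UV. In KO mice the ranges were 0.044 to 2.98 and 2.63 to 8.49 cpm, and the log2 fold change of 1.63 ± 0.55 passed (adjusted P value 0.00991) over both sexes but in neither sex alone.

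Thioesterases split acyl-CoA back to the free fatty acid. Acot1 and Acot2 are neighbours on chromosome 12, 15616 bases apart, and share 21.5% and 17.1% of their windows with other genes. Acot2, the mitochondrial form, ran from 4.24 to 7.34 cpm (median 6.10) without UV and from 3.38 to 5.04 cpm (median 4.40) after UV in WT mice. In KO mice it ran from 7.27 to 11.2 cpm (median 9.46) and from 2.77 to 4.2 cpm (median 3.26). Its log2 fold change was -0.44 ± 0.12 in WT and -1.43 ± 0.12 in KO mice (adjusted P values 0.00171 and 2.82e-11). Acot1, the cytosolic form, had medians of 27.8 and 31 cpm in WT and 41.1 and 34.1 cpm in KO mice without and after UV, and its WT rise of 0.26 ± 0.11 (adjusted P value 0.0371) was lost when any of 4 WT mice (32M, 56M, 63F or 77F) was left out, in each sex alone and without the mice high in muscle markers.

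Synthetases attach coenzyme A to the fatty acid, and the 5 genes did not move as 1 block. Acsl1 fell from a median of 515 cpm (range 396 to 663) to 202 cpm (range 181 to 226) in WT mice. In KO mice Acsl1 fell from 717 cpm (range 544 to 952) to 195 cpm (range 164 to 289). This amounted to log2 fold changes of -1.35 ± 0.10 and -1.83 ± 0.10. Acsbg1, a synthetase for very long chains, fell from 412 cpm (range 345 to 499) to 179 cpm (range 129 to 214) in WT mice and from 854 cpm (range 651 to 1260) to 261 cpm (range 190 to 390) in KO mice. The log2 fold changes were -1.25 ± 0.12 and -1.76 ± 0.12 (adjusted P values 4.99e-10 and 8.07e-13).

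Acsl3, a synthetase of the endoplasmic reticulum and lipid droplets, went the other way, from a median of 9.48 cpm (range 7.85 to 10.6) to 33.5 cpm (range 24.2 to 41) in WT and from 11.5 cpm (range 9.83 to 15.4) to 30 cpm (range 27 to 33.6) in KO mice. The log2 fold changes of Acsl3 were 1.77 ± 0.10 and 1.31 ± 0.10 (adjusted P values 2.14e-14 and 8.28e-12), with no overlap in either genotype. Acsl5 fell by 0.23 and 0.31 on the log2 scale, and Acsl4 did not pass.

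Among the PPAR metabolic targets, 3 of 4 rose in both genotypes, where 34.5% of all genes rose in WT and 37.3% in KO mice. The share of all genes that rose in both was not counted, so nothing is read from this count. Angptl4, a secreted inhibitor of lipoprotein lipase, ran from 0.926 to 2.81 cpm (median 1.32) without UV and from 8.78 to 13.7 cpm (median 10.8) after UV in WT mice. KO mice held 1.93 to 5.39 cpm (median 2.81) and 10.8 to 23.5 cpm (median 14.8). The log2 fold change of Angptl4 was 2.77 ± 0.20 in WT and 2.26 ± 0.20 in KO mice (adjusted P values 1.87e-12 and 6.82e-11), the largest rise among the 33 genes in WT mice.

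Plin2 coats lipid droplets. It went from 16.6 to 69.7 cpm (median 38.4) to 118 to 246 cpm (median 195) in WT mice and from 12.1 to 55.9 cpm (median 23.6) to 85.7 to 332 cpm (median 179) in KO mice. On the log2 scale Plin2 changed by 2.38 ± 0.27 and 2.83 ± 0.28 (adjusted P values 9.54e-09 and 5.35e-10). Fabp5 rose from a median of 825 cpm (range 612 to 1395) to 2010 cpm (range 1484 to 2532) in WT mice, or by 1.11 ± 0.16 on the log2 scale. In KO mice Fabp5 went from 999 cpm (range 676 to 1814) to 1950 cpm (range 1608 to 2469), or by 0.86 ± 0.16.

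Summed sebaceous gland markers moved beside these lipid genes, from a median of 166 cpm (range 48.1 to 349) to 287 cpm (98.2 to 426) in WT and from 59.7 cpm (29.9 to 266) to 442 cpm (180 to 1330) in KO mice, over 8 markers of which none was at 0 in all mice. Of 8 fat cell markers, 4 stayed under 1 cpm in all mice, the defining Adipoq and Plin1 among them. The sum of the 8 had medians of 35.0 and 4.37 cpm in WT and 14.7 and 6.72 cpm in KO mice without and after UV. It reached 116 and 171 cpm in single WT mice and 211 and 139 cpm in single KO mice. Of the 4 tested, 1 rose and 1 fell after UV in each genotype. The part of the sebaceous gland in the rise of Plin2 was not tested.

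Pdk4 encodes a kinase that holds back pyruvate oxidation. Its medians lay between 3.81 and 5.59 cpm in all 4 states and it passed in neither genotype (log2 fold changes 0.44 ± 0.45 and -0.10 ± 0.45). Single mice stood apart: 51.6 cpm in KO control 60F, whose muscle markers were the highest at 4230 cpm, 15.5 cpm in WT UV 38M, with 3200 cpm, and 19.5 cpm in KO UV 58M, with 1595 cpm. The part of muscle RNA in these values was not tested.

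**Figure D4:**
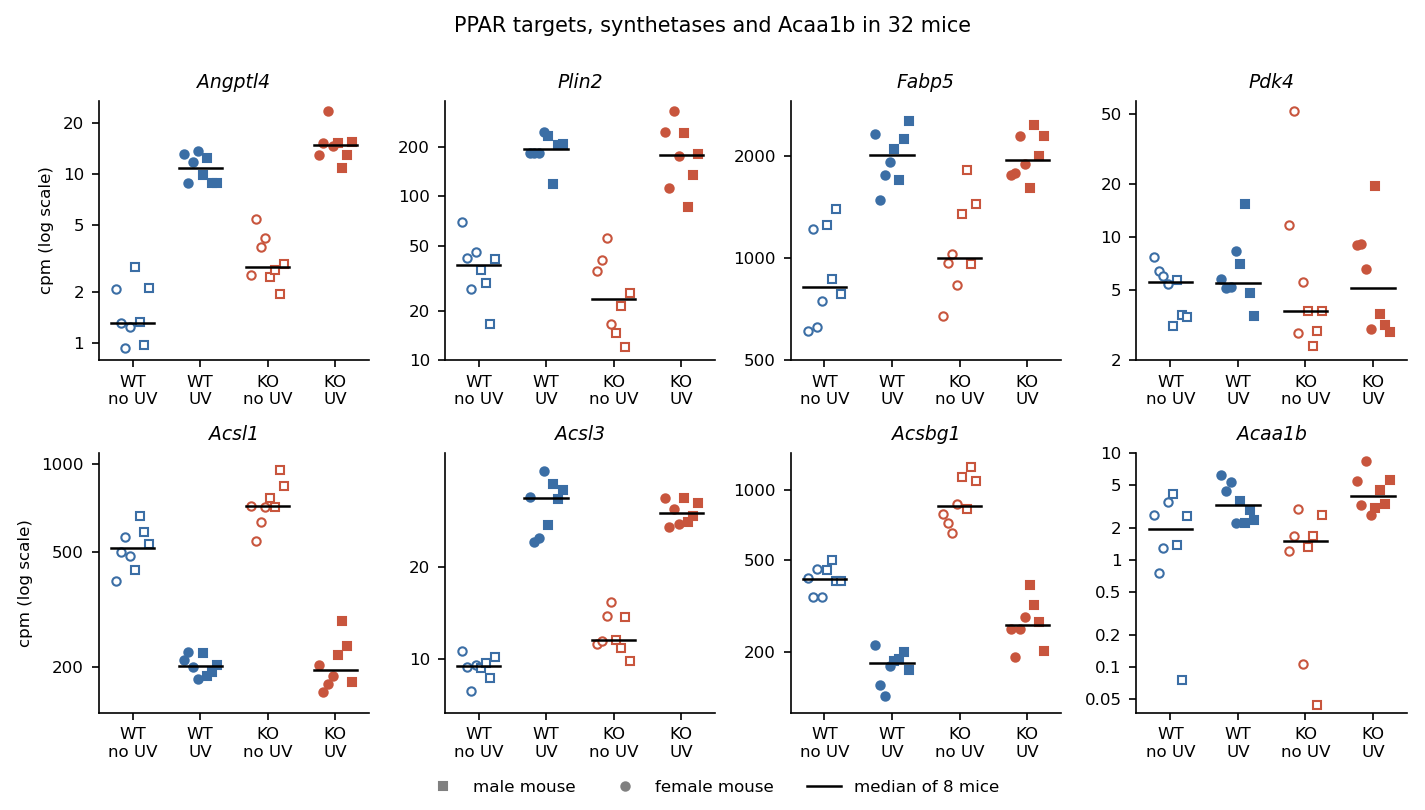
Level in cpm on log axes of the 4 PPAR targets, 3 synthetases and Acaa1b in each of the 32 mice, with symbols as in the plot of oxidation genes by mouse. UV mice lie above the controls for Angptl4, Plin2 and Acsl3 and below them for Acsl1 and Acsbg1 in both genotypes, and Pdk4 shows single high mice in 3 states.

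The rest of the pathway was read from a list of 82 further genes, of which 74 were tested. In WT mice 12 rose and 38 fell, with a median log2 fold change of -0.45, where 34.5% of all genes rose and 36.5% fell. In KO mice 21 rose and 36 fell, with a median of -0.15, where 37.3% and 33.5% of all genes did. Of the 22 other genes of mitochondrial oxidation and ketogenesis, 18 fell and 1 (Cpt1c) rose in WT mice, and 17 fell and 2 (Cpt1c and Crat) rose in KO mice. Among those that fell, Mlycd, which removes the malonyl-CoA that blocks Cpt1a, fell by 1.36 and 1.05 on the log2 scale, and the pyruvate dehydrogenase kinase genes Pdk1 and Pdk3 fell by 1.55 and 2.33 in WT and by 1.30 and 2.19 in KO mice. Cpt1c, a form of the transferase best known from brain, rose from a median of 2.23 cpm (range 1.24 to 2.82) to 27.2 cpm (range 24 to 36.7) in WT and from 1.78 cpm (range 1.06 to 3.52) to 25.4 cpm (range 16.9 to 31.3) in KO mice. Its log2 fold changes were 3.75 ± 0.18 and 3.68 ± 0.18 (adjusted P values 2.6e-16 and 4.6e-16).

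In peroxisomes, Crot, which makes carnitine esters for export, fell by 1.98 and 2.35 on the log2 scale and Acox3 by 1.69 and 1.43, while Acox2, an oxidase for branched chains and bile acid precursors, rose by 1.83 ± 0.22 and 2.22 ± 0.22. The uptake genes Slc27a1 and Slc27a3 fell by 1.76 and 2.54 in WT mice, and Slc27a1 by 1.55 in KO mice, where Slc27a3 went from a median of 61.8 to 10.6 cpm. Of the 21 other PPAR-regulated lipid uptake and storage genes, 4 rose in WT and 10 in KO mice, and 6 fell in each, to be read against the same shares of all genes. Cidea, a lipid droplet protein of sebaceous glands, rose from a median of 11.5 to 52.6 cpm in WT and from 4.65 to 61.9 cpm in KO mice.

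The genotype difference without UV was upward for most genes. KO mice had the higher fitted level for 24 of the 33 genes and the median log2 difference was 0.15, beside a value near 0 over all genes. It passed the threshold for 10 genes upward and none downward, beside 0.148% and 0.0579% of all genes, a count from which nothing is read because this contrast chose the genes. For 6 genes the 8 KO mice lay above all 8 WT mice, beside 0.0708% of all genes, and for none below, beside 0.0322%. The 5 largest differences were those of Acsbg1 (1.13 ± 0.12), Angptl4 (0.98 ± 0.20), Acot2 (0.66 ± 0.12), Acot1 (0.62 ± 0.11) and Slc25a20 (0.61 ± 0.08).

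In cpm, Acsbg1 without UV ran from 345 to 499 in WT and from 651 to 1260 in KO mice. Acsl1, Acadl, Cpt1a, Hadha and Hadhb followed with log2 differences of 0.50, 0.48, 0.47, 0.38 and 0.31. Angptl4 lies 5.47 Mb and Eci1 3.79 Mb from Ppard on chromosome 17. For these genes an effect of the Ppard allele and one of the chromosome segment inherited with it cannot be told apart.

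After UV, KO mice had the lower fitted level for 18 of the 33 genes, with a median log2 difference of -0.05, beside 0.02 over all genes. It passed the threshold for 8 genes downward and 1 upward, beside 0.618% and 2.69% of all genes, again with nothing read from it. For 2 genes, Cpt1a and Cpt2, the KO mice lay below all WT mice, beside 0.129% of all genes, and for none above, beside 0.0579%. The 5 largest differences were those of Cpt2 (-1.16 ± 0.09), Cpt1a (-0.88 ± 0.10), Acsbg1 (0.62 ± 0.12), Eci2 (-0.56 ± 0.14) and Angptl4 (0.47 ± 0.19). Etfa (-0.38), Hadhb (-0.37) and Acaa2 (-0.37) followed.

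By the sign of the fitted difference alone, 14 genes were higher in KO mice without UV and lower after UV, 10 were higher in both, 5 went from lower to higher and 4 were lower in both. These signs are uncertain for many genes, since the difference was within 1 SE of 0 for 6 of the 33 genes without UV and for 14 after UV, Acadl, Hadh, Acsl1 and Acsl5 among the latter. The first set holds Cpt1a and Slc25a20 of the carnitine shuttle, while Cpt2 was lower in both states. It further holds Hadha, Hadhb, Hadh and Acaa2, the dehydrogenase genes Acadl and Acadvl, and Acaa1a, Acot2, Acsl3, Eci2, Etfb and Etfdh. Of the 5 synthetases, Acsbg1, Acsl1, Acsl4 and Acsl5 were higher in both.

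**Figure D5:**
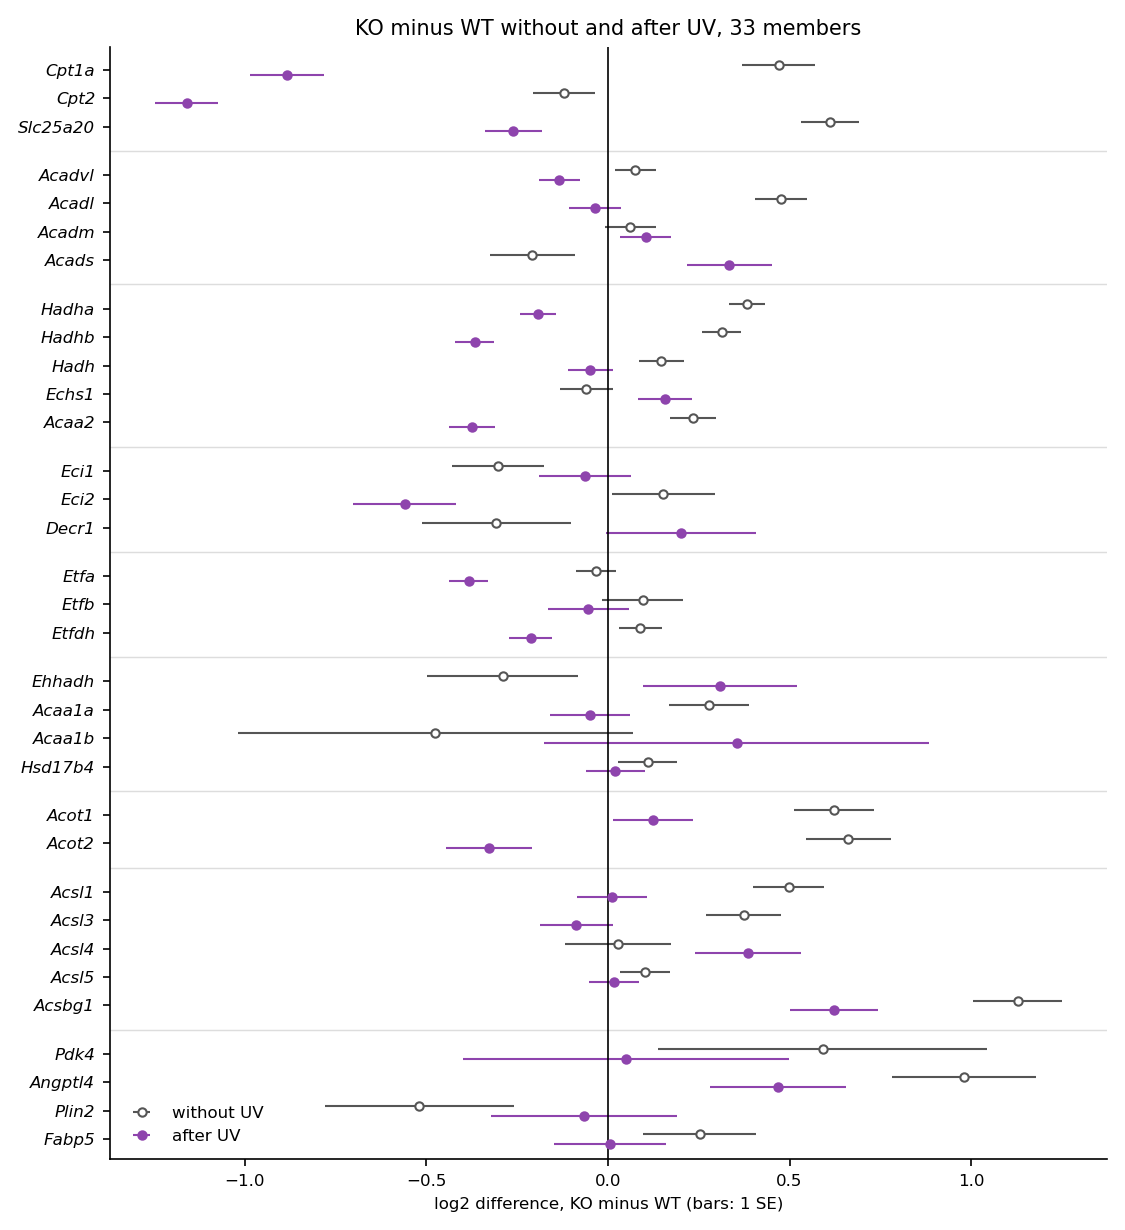
Log2 difference between KO and WT mice without UV (open points) and after UV (filled points) for the 33 tested genes, with bars of 1 SE and 8 mice on each side. Carnitine shuttle points lie left of 0 after UV, at -0.88, -1.16 and -0.26, and Acsbg1 lies right of 0 in both states, at 1.13 and 0.62.

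The UV effect in KO minus that in WT mice, which is the same as the change of the genotype difference, was negative for 24 of the 33 genes. It was lowest for Cpt1a (-1.35 ± 0.14), Cpt2 (-1.04 ± 0.12), Acot2 (-0.99 ± 0.17), Slc25a20 (-0.87 ± 0.11) and Hadhb (-0.68 ± 0.08). It passed the threshold for 9 genes downward and none upward, beside 0.251% and 0.515% of all genes, with nothing read from it. In males alone and in females alone the difference of Cpt1a between KO and WT mice had the same sign, 0.50 and 0.44 without UV and -0.92 and -0.85 after UV. For Cpt2 after UV the 2 values were -1.33 and -0.99, and for Angptl4 without UV 0.47 and 1.49.

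Of the 74 other pathway genes, none passed for KO minus WT without UV, beside 0.148% of all genes upward and 0.0579% downward. An unadjusted p under 0.05 was reached by 11 of them and by 1324 of all 15546 genes. After UV, 3 passed upward (Acsf2, Hacl1 and Mlycd) and 1 downward (Acot4), beside 2.69% and 0.618% of all genes, with nothing read from it. The largest KO minus WT differences among the other pathway genes averaging at least 1 cpm were Fabp4 (1.43 ± 0.58), Cidea (-0.94 ± 0.35) and Plin4 (-0.81 ± 0.58) without UV, and Cyp4b1 (2.86 ± 0.82), Lpl (1.40 ± 0.54) and Mgll (1.30 ± 0.48) after UV. Single KO mice stood apart for these 3 genes after UV. Cyp4b1 was at most 0.21 cpm in WT UV mice and reached 6.32 cpm in KO UV female 54F, the mouse high in fibroblast markers, against 0.272 cpm in the next KO UV mouse. Lpl was also highest in 54F, at 104 cpm with 26.5 cpm in the next, and the KO UV mean of Lpl was 25.6 cpm with this mouse and 14.3 cpm without it, beside 8.47 cpm in WT UV mice. Mgll reached 563 cpm in KO UV female 66F, the mouse highest in sebaceous gland markers, with 254 cpm in the next, and its KO UV mean was 195 cpm with and 142 cpm without 66F, beside 79.4 cpm in WT UV mice. Without UV, Fabp4 was highest in KO female 44F, at 7.09 cpm. Plin4 reached 13.2 cpm in both genotypes, in WT female 61F and in KO female 60F. The mice 44F and 60F, but not 61F, are among those high in muscle markers.

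Sex was tested as a difference the choice of the genes did not use. Each sex contrast was the mean over WT and KO mice, which each sex holds in equal numbers. Sex in WT mice alone was not tested. No gene of the 15546 passed the test for a UV effect that differed between females and males (0% upward and 0% downward at an adjusted P value under 0.05 by edgeR). At an unadjusted p under 0.05 by edgeR, 1091 genes passed, 2 of them among the 33. At an adjusted P value under 0.05, limma-trend called 1 gene upward and 1 downward, and DESeq2 10 and 12, none of them among the 33. Without UV, 2 of the 33 genes were higher and 2 lower in females than in males, beside 2.22% and 4.64% of all genes. Acads was higher by 0.38 ± 0.12 and Pdk4 by 1.57 ± 0.46 on the log2 scale, and Etfa and Fabp5 were lower, by 0.19 and 0.55. Muscle markers differed between the same mice, with a median of 1110 cpm (range 10 to 4230) in the 8 females and 102 cpm (range 10.9 to 586) in the 8 males, and their part in the sex differences was not tested. None of the 4 calls held under all alternatives: each was lost without the 9 mice high in muscle markers and when any of 9 to 14 single mice was left out.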

How the data were processed

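RNA of the epidermis of 32 mice was made into stranded TruSeq mRNA libraries. According to the labels and the submitters' processing notes, the authors trimmed reads with cutadapt 1.8, aligned them to GRCm38 with STAR 2.5.3a and counted them with HTSeq 0.9.1. The deposited files hold raw counts per gene for each mouse, with no normalization. Summary lines that name no gene were left out (reads on no gene were 6.80% to 9.75% of uniquely aligned reads). Gene positions and lengths came from GENCODE M21 (55141 of 55401 identifiers matched), promoter windows from RefSeq (GRCm38.p6), whose table holds no window for 6 members.

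The filter kept genes that reached 1 cpm in any mouse, library sizes were scaled by TMM (factors 0.864 to 1.09), and edgeR 4.0.16 (R 4.3.3) fitted 1 quasi-likelihood model with a mean per sex, genotype and treatment group. UV and genotype differences are means over both sexes, and sex differences are means over both genotypes. Adjusted P values are Benjamini-Hochberg over all 15546 genes, and standard errors were taken from the F statistic. Level means cpm with TMM. The fit was tested on simulated data. Alternatives were RLE scaling, DESeq2 1.42.0, limma-trend 3.58.1 with a prior count of 1, other filters, 1 genotype or 1 sex alone and each mouse left out. Leaving out the 9 mice whose 8 muscle markers summed to over 1000 cpm was chosen after seeing the data. The members and lists were chosen with earlier results of these data known. Named in full are members with an adjusted P value under 0.05 and at least a 2-fold change in a UV effect, Cpt1a and the PPAR targets, and the 5 largest genotype differences per treatment. Of the other pathway genes, those past both limits in both genotypes in the same direction could be named, and the 3 largest genotype differences per treatment. No 2 mice of a group differed by as little as sampling noise (chi-square per degree of freedom 19.5 to 134 over 48 pairs). Shared reads were judged by 100-base windows of transcripts that occur in another gene's transcripts on either strand.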

Additional observations from a re-analysis of the deposited data

Results flagged for a closer look

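Single mice stood apart in 4 of the 88 sets of 8 mice examined (22 genes in 4 states), where the rule used marks about 1 set in 20 by chance. Of the 4, 3 were sets of Pdk4. The highest of the 8 KO UV mice for Angptl4 was 66F, at 23.5 cpm against 15.5 cpm for the next. For Pdk4, 1 mouse stood far above the others in KO mice without UV (51.6 cpm, next 11.7), in WT UV mice (15.5 cpm, next 8.32) and in KO UV mice (19.5 cpm, next 9.16). The summed muscle markers of these 3 mice were 4232, 3197 and 1595 cpm, and their part in the Pdk4 values was not tested.

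For 9 genes the UV effect in KO mice differed from that in WT mice in the edgeR fit, each lower in KO mice. The log2 differences between the effects were -1.35 for Cpt1a, -1.04 for Cpt2, -0.99 for Acot2, -0.87 for Slc25a20, -0.68 for Hadhb, -0.61 for Acaa2, -0.58 for Hadha, -0.51 for Acadl and -0.35 for Etfa. The genes were chosen with this contrast known, so the values describe these mice and are no independent evidence.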

How the results depend on the processing

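The counts of genes that rose and fell after UV stayed within 1.5 times under every alternative, from 11 to 14 upward and 10 to 12 downward in WT mice and from 8 to 11 and 15 to 19 in KO mice. Of the 24 calls in WT and 27 in KO mice, 19 and 21 held under every alternative. No called result reversed. With single mice left out, Acot1 was lost in WT mice and Acaa1a and Hadhb in KO mice (without 54F, adjusted P values 0.0624 and 0.0534), and the fall of Acot1 in KO mice passed with RLE scaling, DESeq2, either other filter or KO mice fitted alone. The cause was not tested for any of these.

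For KO minus WT without UV, the count of 10 upward became 4 in males, 1 in females and 5 without the mice high in muscle markers. After UV the counts of 1 upward and 8 downward became 0 and 2 in males, 3 and 7 in females, and 0 and 4 without those mice, and 5 to 9 were downward with 1 mouse left out, the lowest without WT UV female 51F. These alternatives use fewer mice. For the change of the genotype difference, DESeq2 gave 1 upward and 16 downward in place of 0 and 9. Without those mice, the Pdk4 difference without UV went from 0.59 to -0.49.

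The sex difference without UV was called for 2 genes upward and 2 downward. These became 0 and 0 with no filter on low counts and without the mice high in muscle markers, 1 and 2 with limma-trend, 4 and 4 with DESeq2, 2 and 0 with the filter of edgeR's filterByExpr, and 0 to 4 in each direction with 1 mouse left out. Genes under about 10 cpm, such as Ehhadh and Acaa1b, rest on few reads (at most 140 and 259 per mouse).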
